A study of Mus musculus with 6 samples.

Results

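The genes described here are the ligands and receptors of the TNF superfamilies, taken by name from the mouse annotation as every symbol starting with Tnfsf or Tnfrsf together with Tnf, Lta, Ltb, Ltbr, Fas, Fasl, Cd27, Cd40, Cd40lg and Cd70. The rule found 43 genes, of which 42 had a transcript in the deposited files (18 ligands and 24 receptors) out of 35896 genes in all. The antisense gene Tnfsf13os was the member without one. RNA was sequenced from naive CD4+ T cells of C57BL/6 mice, 8 to 10 weeks old, after 48 h of stimulation through CD3 (antibody at 2 µg/ml) and CD28 (at 1 µg/ml) in Th9 conditions. These were made with the cytokines IL-4 (20 ng/ml) and TGF-β (2.5 ng/ml) and an antibody that blocks IFN-γ (10 µg/ml). The WT group (3 samples) came from Cul5 fl/fl littermates without Cre, so both groups carried the floxed allele, and the Cul5 cKO group (3 samples) came from Cul5 fl/fl CD4-Cre mice, in which Cre under the Cd4 promoter removes exons of Cul5 already in developing T cells, CD8 lineage cells included. Cul5 encodes the scaffold of a family of ubiquitin ligases. The study asked how gene expression in Th9 cultures changes without it.

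TNF superfamily ligands are mostly membrane-bound trimers that cluster their receptors on the same or a neighbouring cell, and some are cut free by sheddases. Receptors without a death domain recruit TRAF adaptors and signal to NF-kappaB and MAP kinases, those with a death domain can also start caspase-driven death, and decoy receptors bind ligand without signalling. In CD4+ T cells the family is known for costimulation after activation (OX40, GITR, CD27, CD30), for help to B cells through CD40 ligand, and for the lymphotoxins, which shape lymphoid tissue.

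The estimated counts summed to 3944803 in WT replicate 3 and to between 23111689 and 23454552 in the other 5 samples. Cul5 itself was at 64.4, 69.3 and 65.0 CPM (counts scaled to library size by TMM) in WT samples and at 10.6, 14.2 and 13.1 CPM in Cul5 cKO samples (log2 fold change -2.39 ± 0.11, SE, with an adjusted p = 0.000992 in edgeR). The label of T cells was borne out by the summed level of 7 T cell markers (1496 to 1884 TPM, a level corrected for transcript length), and Il9, the cytokine that names Th9 cells, was at 1098 to 1480 TPM in WT and at 3020 to 4076 TPM in Cul5 cKO samples. Foxp3 was also present in every sample, at 181 to 301 TPM. Markers of other cells stood apart in a pair of Cul5 cKO samples. In replicate 3 the sum of 8 B cell markers was 45.1 TPM against 14.1 to 27.0 TPM elsewhere, and in replicate 2 the neutrophil markers S100a8, S100a9 and Elane reached 11 to 14.5 TPM against 0 to 0.152 TPM elsewhere, with Ly6g and Retnlg at 0 in all 6 samples. Replicate 1 of both genotypes also stood apart from replicates 2 and 3 without a batch named in the labels, so the fit with a term for replicate 1 and that of replicates 2 and 3 alone are given for the genes that either one called. Nothing in the labels says that the samples came from separate mice, and the study describes them as examined in a single experiment. The p-values here set the group difference against the spread between these samples. Samples with the same replicate number are not labelled as pairs, so ratios by replicate number only describe the values.

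Of the 42 members, 40 had a count in at least 1 sample and 34 (12 ligands and 22 receptors) passed the filter on low counts and were tested. Lta, which encodes lymphotoxin-α, was the member with an adjusted p under 0.05, and it was higher in Cul5 cKO cells, which is 1 of 34 (2.94%) against 1.03% of all 12925 genes tested in either direction and 0.611% called higher. Over all genes 79 were called higher and 54 lower, a split that became 72 and 77 with scaling by library size alone. The median log2 fold change was -0.06 over the members (-0.10 for ligands and 0.14 for receptors) and -0.01 over all genes tested. At an unadjusted p under 0.05, 10 of 34 members (29.4%) passed, against 21.3% of all genes. Of these, 6 were higher (Lta, Cd40, Tnfrsf12a, Tnfrsf8, Tnfrsf13b and Tnfrsf4) against a background of 10.9%, and 4 were lower (Tnfrsf9, Cd27, Tnfrsf26 and Tnfsf10) against 10.4%.

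When replicate 1 was set apart by a term in the model, 11 of 34 members (32.4%) had an adjusted p under 0.05, against 13.1% of all genes. The 6 called higher were Lta, Tnf, Tnfrsf4, Tnfrsf8, Tnfrsf13b and Cd40 (background 7.17%), and the 5 called lower were Cd27, Tnfrsf9, Tnfsf8, Tnfsf10 and Tnfsf11 (background 5.89%). In replicates 2 and 3 alone, 8 of 34 members (23.5%) were called against 8.83% of all genes, and all 8 were among those 11. Both fits were chosen after replicate 1 was seen to stand apart, and they share samples. The overlap of their calls is therefore not an independent check. DESeq2 on the 6 samples called Lta and Cd40, 2 of the 32 members it gave an adjusted p (6.25%), against 5.94% of all genes. Replicate 1 of both genotypes lay below the other 4 samples for 9 of 34 members (26.5%, against 12.2% of all genes), among them the ligands Tnf, Ltb, Cd40lg, Tnfsf8, Tnfsf9, Tnfsf11 and Tnfsf14, and above them for 3 (Tnfrsf1a, Tnfrsf18 and Tnfsf13b, 8.82%, against 14.6%). Groups did not overlap in CPM for 9 of 34 members (26.5%, background 27.5%), of which 5 lay higher (background 14.0%) and 4 lower (background 13.5%) in Cul5 cKO cells, a share near that of all genes. On the TPM scale, which divides by transcript length, 4 of 34 (11.8%) did not overlap against 21.9% of all genes. Of the 9, 3 (Lta, Tnfrsf8 and Tnfrsf25) were separate on both scales. Cd40, Tnfrsf12a, Tnfrsf10b, Tnfsf10, Fas and Tnfrsf23 were separate in CPM but overlapped in TPM.

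**Figure D1:**
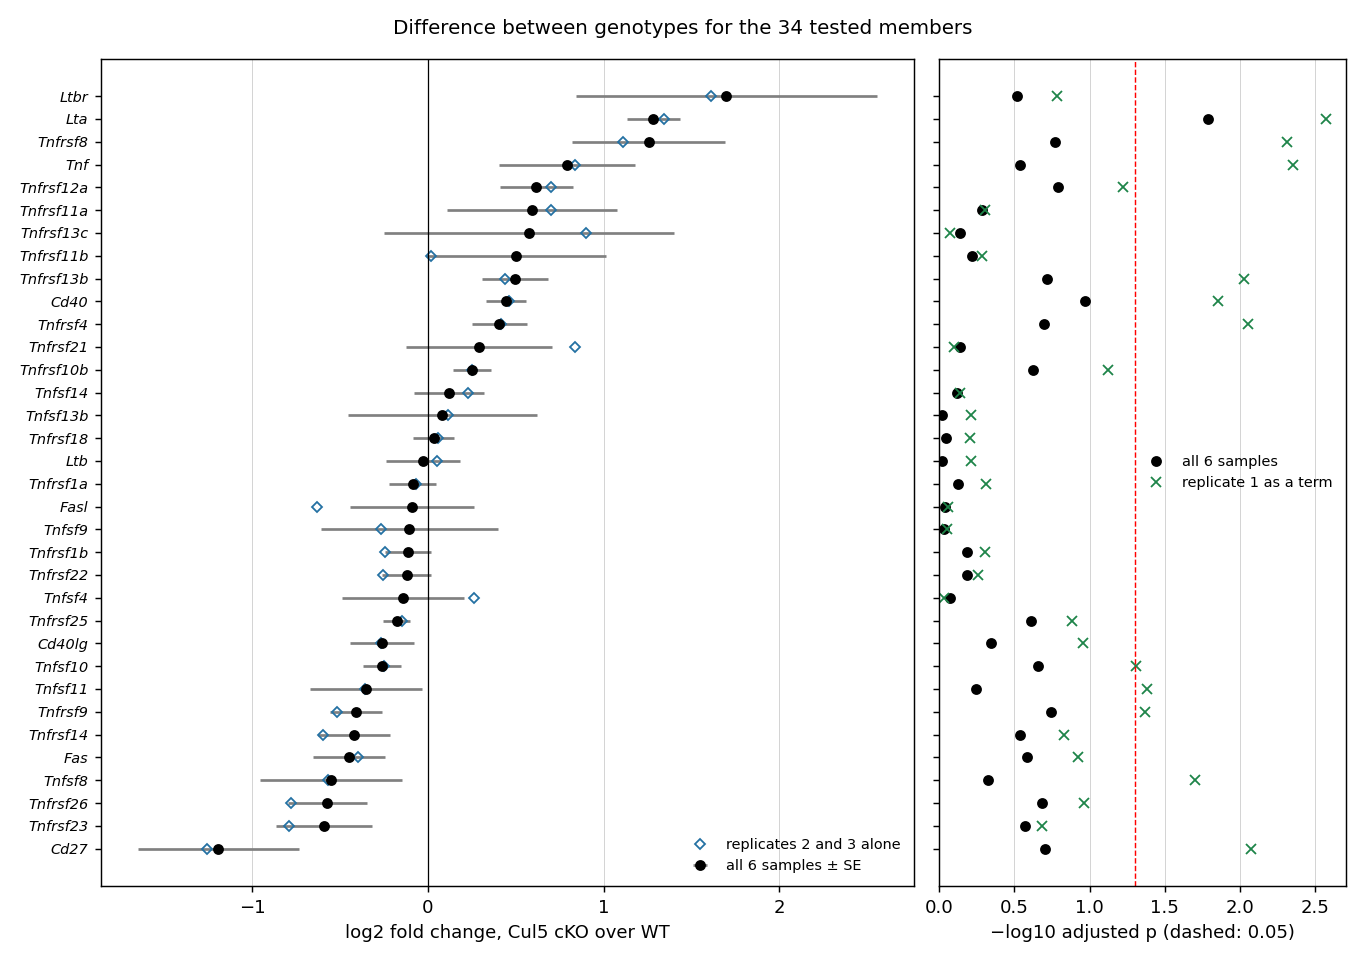
Left, log2 fold change of Cul5 cKO over WT for the 34 tested members, as points with their SE for all 6 samples (3 a group) and as open diamonds for replicates 2 and 3 alone. Right, −log10 of the adjusted p from edgeR for all 6 samples (circles) and with replicate 1 as a term (crosses), where Lta is the circle right of the dashed line at 0.05 and 11 crosses lie right of it.

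Among the ligands, Lta and Ltb held the highest levels per length, and Lta was the called member. Tnf and Tnfsf11 came next and close together, at 41.7 and 61.0 TPM in WT and at 70.2 and 47.2 TPM in Cul5 cKO cells. Lta, Tnf and Ltb lie side by side on chromosome 17 of GRCm38, with Ltb at chr17:35194439-35196320 on the plus strand, Tnf at chr17:35199381-35202007 on the minus strand and Lta at chr17:35203165-35205351 on the minus strand. Tnf starts 1157 bases beyond the end of Lta, and 3060 bases separate Ltb from Tnf. The 250 bases before each RefSeq start (GRCm38.p6) are shown for reference, and no link between these sequences and the RNA levels was tested. Capitals mark matches on either strand to NF-kappaB (GGG, any 2 bases, TTTCC), NFAT (TGGAAA), AP-1 (TGANTCA), STAT5 (TTCNNNGAA) and STAT6 (TTC, any 4 bases, GAA) motifs, of which the NF-kappaB and NFAT letters can overlap.
Lta: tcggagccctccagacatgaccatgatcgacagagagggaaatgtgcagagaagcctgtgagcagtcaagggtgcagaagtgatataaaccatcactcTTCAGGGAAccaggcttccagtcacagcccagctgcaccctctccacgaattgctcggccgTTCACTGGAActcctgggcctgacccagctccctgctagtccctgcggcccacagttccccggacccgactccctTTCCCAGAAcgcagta
Tnf: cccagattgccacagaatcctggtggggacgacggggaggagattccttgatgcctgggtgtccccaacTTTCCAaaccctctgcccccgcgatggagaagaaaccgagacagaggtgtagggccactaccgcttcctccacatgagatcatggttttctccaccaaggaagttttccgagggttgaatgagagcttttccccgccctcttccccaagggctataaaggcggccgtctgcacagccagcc
Ltb: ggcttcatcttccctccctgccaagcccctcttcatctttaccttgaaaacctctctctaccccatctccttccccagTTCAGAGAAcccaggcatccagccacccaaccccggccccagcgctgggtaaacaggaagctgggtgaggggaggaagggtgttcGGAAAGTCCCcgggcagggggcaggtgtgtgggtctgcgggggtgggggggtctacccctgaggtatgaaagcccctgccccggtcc

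The Lta stretch (chr17:35205352-35205601, minus strand) held the STAT5 letters at 2 places, 152 to 144 and 16 to 8 bases before the start, and the STAT6 letters 91 to 82 bases before it. The Tnf stretch (chr17:35202008-35202257, minus strand) held NFAT letters 181 to 176 bases before the start, and the Ltb stretch (chr17:35194257-35194506, plus strand) STAT5 letters at 172 to 164 and NF-kappaB letters at 87 to 78 bases. Over all 32851 promoters in the table these letters occurred in 1.41% (NF-kappaB), 18.6% (NFAT), 6.75% (AP-1), 7.02% (STAT5) and 5.85% (STAT6). In the 36 promoters of the 32 members matched by symbol they occurred in 3, 7, 6, 8 and 4 promoters, which is 8.33%, 19.4%, 16.7%, 22.2% and 11.1%. These are matches of letters in a short window and not binding sites.

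Lta was the member with the highest level. It was at 502, 425 and 406 CPM in WT replicates 1, 2 and 3 and at 1144, 853 and 1253 CPM in Cul5 cKO replicates 1, 2 and 3, and every Cul5 cKO sample lay above every WT sample. This was a 2.44-fold difference (log2 1.28 ± 0.15, SE, edgeR adjusted p = 0.0164). By replicate number, not taken as pairs, the log2 ratios were 1.19, 1.0 and 1.62. In the fit with a replicate 1 term the adjusted p was 0.0027, and in replicates 2 and 3 alone 0.0169. Over all alternatives it ranged up to 0.0946, and the call was lost when WT replicate 2 (0.0946), WT replicate 3 (0.0928) or replicate 3 of the Cul5 cKO group (0.0839) was left out, where the log2 fold change stayed between 1.17 and 1.25. Per length, Lta made up 26.0% of the summed TPM of all 42 members in WT and 44.1% in Cul5 cKO cells. The sum over the other 41 members was 1469 ± 133 TPM (SD, n = 3) in WT and 1577 ± 62.2 TPM (SD, n = 3) in Cul5 cKO cells.

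Tnf, the founding cytokine of the family, was at 27.2, 53.3 and 50.6 CPM in WT and at 37.4, 93.0 and 93.4 CPM in Cul5 cKO samples. Both replicate 1 samples were below the other samples, so that Cul5 cKO replicate 1 lay under WT replicates 2 and 3 and the groups overlapped. The fitted log2 fold change came to 0.79 ± 0.39 (SE, adjusted p = 0.292). The log2 ratios by replicate number, not taken as pairs, were 0.46, 0.80 and 0.88. Tnf passed with replicate 1 as a term (adjusted p = 0.0044) and in replicates 2 and 3 alone (0.0068), over a range of 0.0044 to 0.609 among the alternatives. Ltb, whose product anchors lymphotoxin-α to the membrane, was at 98.7, 133 and 126 CPM in WT and at 80.5, 139 and 130 CPM in Cul5 cKO samples, for which the log2 fold change was -0.03 ± 0.21 (SE) and the adjusted p = 0.957. The groups overlapped, with the lowest value of each group in replicate 1.

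The ratio of Lta to Ltb, per length, was 4.14, 2.60 and 2.63 in WT and 11.6, 5.0 and 7.86 in Cul5 cKO samples, with no overlap (log2 difference 1.34, two-sided exact permutation p = 0.1, the smallest that 3 against 3 samples allow). The ratio of Lta to Tnf was 22.5, 9.71 and 9.84 in WT and 37.2, 11.2 and 16.3 in Cul5 cKO samples, and here the groups overlapped (log2 difference 0.55, exact permutation p = 0.5). In both genotypes replicate 1 had the highest ratio of Lta to Tnf. The ratio of Tnf to Ltb ran from 0.184 to 0.268 in WT and from 0.312 to 0.481 in Cul5 cKO samples (log2 difference 0.78, exact permutation p = 0.1). The ratios were chosen after the values of these genes were seen.

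**Figure D2:**
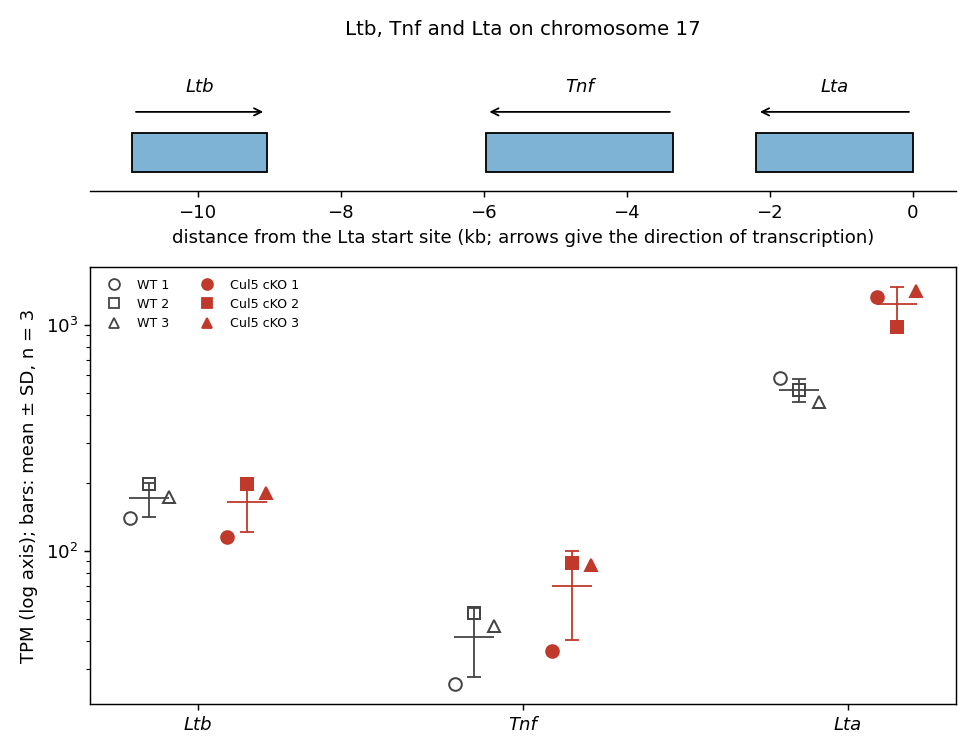
Top, the Ltb, Tnf and Lta genes drawn to scale by distance in kb from the Lta start site, with arrows for the direction of transcription. Bottom, TPM of each gene on a log axis, with 1 point for each sample and bars for the mean ± SD (n = 3 a group). The 3 Cul5 cKO samples of Lta (984 to 1415 TPM) lie above the 3 WT samples (457 to 580 TPM), whereas those of Ltb lie among them.

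The costimulatory ligands were lower in level and none was called in the fit of all 6 samples. Cd40lg, through which helper T cells activate B cells and dendritic cells, ran from 12.3 to 17.1 CPM in WT and from 9.86 to 14.1 CPM in Cul5 cKO samples (log2 fold change -0.26 ± 0.18, SE, adjusted p = 0.451). Tnfsf8, the ligand of CD30, was at 13.8, 31.5 and 28.8 CPM in WT and at 8.90, 23.0 and 18.0 CPM in Cul5 cKO samples, and the groups overlapped. Its fitted log2 fold change came to -0.55 ± 0.40 (SE, adjusted p = 0.474), and the adjusted p was 0.0198 with replicate 1 as a term and 0.0532 in replicates 2 and 3 alone, over a range of 0.0193 to 0.799. Tnfsf14 (LIGHT), Tnfsf9 (CD137 ligand) and Tnfsf4 (OX40 ligand) had log2 fold changes of 0.12 ± 0.20, -0.11 ± 0.50 and -0.14 ± 0.35 (SE, adjusted p from 0.762 to 0.933). Their direction turned in at least 1 alternative each.

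Among the remaining ligands, Tnfsf11 (RANKL, best known for driving osteoclast formation) was at 59.3, 122 and 90.6 CPM in WT and at 43.8, 85.4 and 83.6 CPM in Cul5 cKO samples. The groups overlapped, replicate 1 was the lowest of each group, and the fitted log2 fold change came to -0.35 ± 0.32 (SE, adjusted p = 0.566, with 0.0417 for replicate 1 as a term and 0.121 for replicates 2 and 3 alone, over a range of 0.0417 to 0.961). Tnfsf10 (TRAIL, a death ligand) was at 96.0, 82.6 and 81.2 CPM in WT and at 79.6, 74.5 and 63.2 CPM in Cul5 cKO samples, all lower, with a log2 difference of -0.26 ± 0.11 (SE, adjusted p = 0.220, with 0.0493 for replicate 1 as a term and 0.121 for replicates 2 and 3 alone, over a range of 0.0493 to 0.625). The gap between the groups was small (81.2 against 79.6 CPM). Fasl, the ligand that triggers death through Fas, was at 1.88 to 3.29 CPM in WT and at 1.97 and 1.73 CPM in Cul5 cKO replicates 2 and 3, with Cul5 cKO replicate 1 above every WT sample (adjusted p = 0.915), and Tnfsf13b (BAFF, a survival factor for B cells) at 10.3 to 35.9 CPM (adjusted p = 0.953), with its highest value in each group in replicate 1.

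The receptors with the highest level per length were Tnfrsf4 (361 TPM over all samples), Tnfrsf13b (253 TPM) and Tnfrsf18 (168 TPM), and with Lta (881 TPM) and Ltb (167 TPM) they were the 5 members over 100 TPM. Neighbours further down this order, such as Tnfrsf25, Tnfrsf1b and Tnfrsf9 (60.4 to 62.8 TPM), differed by less than the spread between samples. In all, 12 receptors and 8 ligands were over 10 TPM and 11 members were under 1 TPM.

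**Figure D3:**
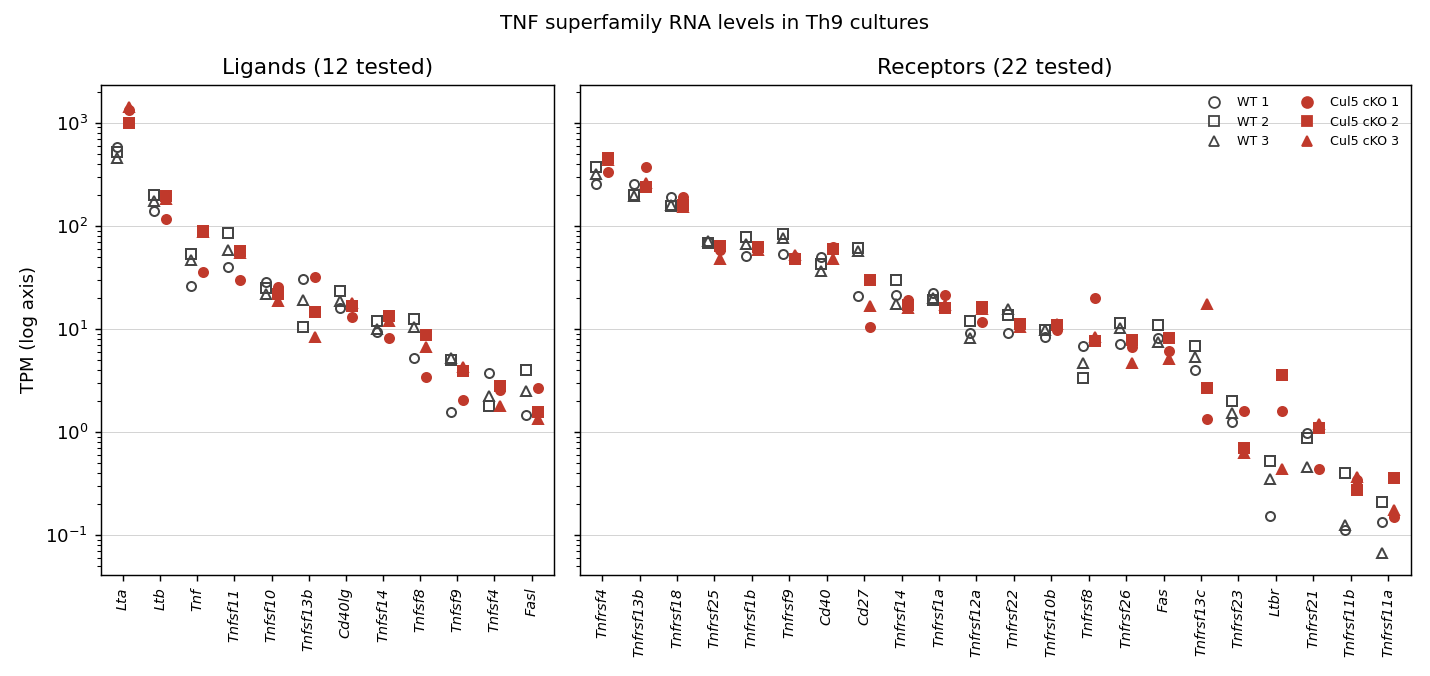
TPM on a log axis for the 12 ligands (left) and 22 receptors (right) that were tested, in order of their mean, with open symbols for WT and filled red symbols for Cul5 cKO samples and a shape for each replicate number. Lta is the gene at the left end, with Cul5 cKO samples above all WT samples. Tnfrsf13c shows a single Cul5 cKO sample above the rest. For Ltbr, Cul5 cKO replicates 1 and 2 (1.60 and 3.56 TPM) lie above the other samples (at most 0.518 TPM).

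Tnfrsf4 encodes OX40, a costimulatory receptor that activated T cells display. It lies at chr4:156013843-156016612 on the plus strand of GRCm38, 9551 bases before Tnfrsf18 at chr4:156026164-156028895, which encodes GITR. Tnfrsf4 was at 148, 206 and 185 CPM in WT and at 192, 264 and 259 CPM in Cul5 cKO samples. Its log2 ratios by replicate number, not taken as pairs, were 0.38, 0.36 and 0.48. Since the lowest Cul5 cKO value was under the highest WT value the groups overlapped, and the fitted log2 fold change came to 0.41 ± 0.16 (SE, adjusted p = 0.200). The adjusted p was 0.0089 with replicate 1 as a term and 0.0293 in replicates 2 and 3 alone, over a range of 0.0089 to 0.475. Tnfrsf18 was at 132, 104 and 109 CPM in WT and at 134, 111 and 110 CPM in Cul5 cKO samples, with no call (log2 fold change 0.03 ± 0.12, SE, adjusted p = 0.903), and its sign turned with scaling by library size alone (-0.01) and on TPM. Replicate 1 was the highest sample of each group for Tnfrsf18 and the lowest for Tnfrsf4, so the ratio of the pair, 1.35, 2.38 and 1.99 in WT and 1.74, 2.87 and 2.83 in Cul5 cKO samples per length, overlapped (log2 difference 0.38, two-sided exact permutation p = 0.3). The main protein-coding transcript, Tnfrsf4-201, made up 84.7% to 86.3% of the TPM of Tnfrsf4 in every sample.

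Tnfrsf8 encodes CD30, a receptor of activated lymphocytes. It was at 16.2, 7.44 and 11.6 CPM in WT and at 46.7, 18.0 and 19.9 CPM in Cul5 cKO samples, so every Cul5 cKO sample was above every WT sample, and replicate 1 was the highest of each group. The fitted log2 fold change came to 1.26 ± 0.44 (SE, adjusted p = 0.169), and the adjusted p was 0.0048 with replicate 1 as a term and 0.0338 in replicates 2 and 3 alone, over a range of 0.0048 to 0.376. Leaving out 1 sample at a time moved the log2 fold change between 0.68 and 1.68. Tnfrsf1b, the TNF receptor of activated T cells that lies 20266 bases from Tnfrsf8, was at 136, 196 and 185 CPM in WT and at 155, 163 and 159 CPM in Cul5 cKO samples (log2 fold change -0.11 ± 0.13, SE, adjusted p = 0.659).

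Cd27, a costimulatory receptor that naive T cells carry and that is lost on prolonged activation, was at 13.6, 36.7 and 32.6 CPM in WT and at 6.43, 18.0 and 11.3 CPM in Cul5 cKO samples. Its log2 ratios by replicate number, not taken as pairs, were -1.08, -1.03 and -1.53. Both replicate 1 samples were the lowest of their group, so that WT replicate 1 lay under Cul5 cKO replicate 2. The fitted log2 fold change came to -1.19 ± 0.46 (SE, adjusted p = 0.199), with 0.0085 for replicate 1 as a term and 0.0297 for replicates 2 and 3 alone, over a range of 0.0042 to 0.452. Tnfrsf9 (CD137, induced by activation) was at 60.3, 87.8 and 77.4 CPM in WT and at 53.1, 52.4 and 64.0 CPM in Cul5 cKO samples, with a log2 fold change at -0.41 ± 0.15 (SE, adjusted p = 0.181, and 0.0429 and 0.0450 in the same pair of fits, over a range of 0.0429 to 0.403). Cul5 cKO replicate 3 lay above WT replicate 1, which makes the groups overlap in CPM, whereas in TPM they did not (47.2 to 52.6 against 52.7 to 84.2). Tnfrsf25, a death-domain receptor that costimulates T cells, was at 54.6, 50.4 and 51.1 CPM in WT and at 46.9, 48.9 and 42.4 CPM in Cul5 cKO samples, all lower by a small margin (log2 fold change -0.18 ± 0.08, SE, adjusted p = 0.244). Tnfrsf14 (HVEM, the receptor of LIGHT) ran from 8.88 to 14.6 CPM in WT and from 7.69 to 9.64 CPM in Cul5 cKO samples (adjusted p = 0.288).

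The receptors best known from B cells and antigen-presenting cells were present in these T cell cultures. Tnfrsf13b encodes TACI, a receptor for BAFF and APRIL. It was at 250, 185 and 194 CPM in WT and at 379, 237 and 273 CPM in Cul5 cKO samples, with the highest value of each group in replicate 1, a log2 difference of 0.50 ± 0.19 (SE, adjusted p = 0.193), and adjusted p of 0.0094 with replicate 1 as a term and 0.0364 in replicates 2 and 3 alone, over a range of 0.0094 to 0.437. Cd40 was at 30.1, 25.6 and 25.8 CPM in WT and at 41.0, 38.0 and 32.8 CPM in Cul5 cKO samples, all higher, with a log2 difference of 0.45 ± 0.11 (SE, adjusted p = 0.108). Its adjusted p was 0.0140 and 0.0446 in the same pair of fits and 0.0390 in DESeq2, over a range of 0.0140 to 0.303. The B cell marker sum was 14.1, 14.4 and 45.1 TPM in Cul5 cKO replicates 1, 2 and 3 and 20.1 to 27.0 TPM in WT, and the part of B cells in the values of Tnfrsf13b and Cd40 was not tested.

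Tnfrsf13c, the BAFF receptor of B cells, moved differently. It was at 3.76, 5.49 and 3.29 CPM in WT and at 1.65, 2.10 and 15.6 CPM in Cul5 cKO samples, so Cul5 cKO replicates 1 and 2 were below all WT samples and replicate 3 above them. The fitted log2 fold change came to 0.58 ± 0.82 (SE, adjusted p = 0.724) and became -1.18 (adjusted p = 0.288) without Cul5 cKO replicate 3. That sample had a B cell marker sum of 45.1 TPM against 14.1 to 27.0 TPM elsewhere. Not every marker set it apart, since Cd22 was at 4.27 TPM there and at 5.99 TPM in Cul5 cKO replicate 1. Cd79b was at 16.6 TPM there and at 16.1 TPM in WT replicate 1. In bulk RNA, fewer cells of a type and less RNA per cell cannot be told apart, and the part of B cells in the Tnfrsf13c values was not tested. Tnfrsf17, the third receptor of this group, had no count in any sample.

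Of the TNF and lymphotoxin receptors, Tnfrsf1a, which carries a death domain and is widely expressed, ran from 20.9 to 27.9 CPM over all samples (log2 fold change -0.09 ± 0.13, SE, adjusted p = 0.746). Ltbr, the lymphotoxin-β receptor that is typical of stromal and myeloid cells, had 5, 16 and 2 counts in WT and 13, 76 and 14 counts in Cul5 cKO samples. The high sample was Cul5 cKO replicate 2, the one with neutrophil markers, and the other 5 samples were at 0.213 to 0.692 CPM. The myeloid marker sum was also highest in that sample, at 9.27 TPM against 1.37 to 6.97 TPM elsewhere. The fitted log2 fold change came to 1.70 ± 0.86 (SE, adjusted p = 0.304) with that sample and 0.37 without it. The part of neutrophils or other myeloid cells was not tested.

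**Figure D4:**
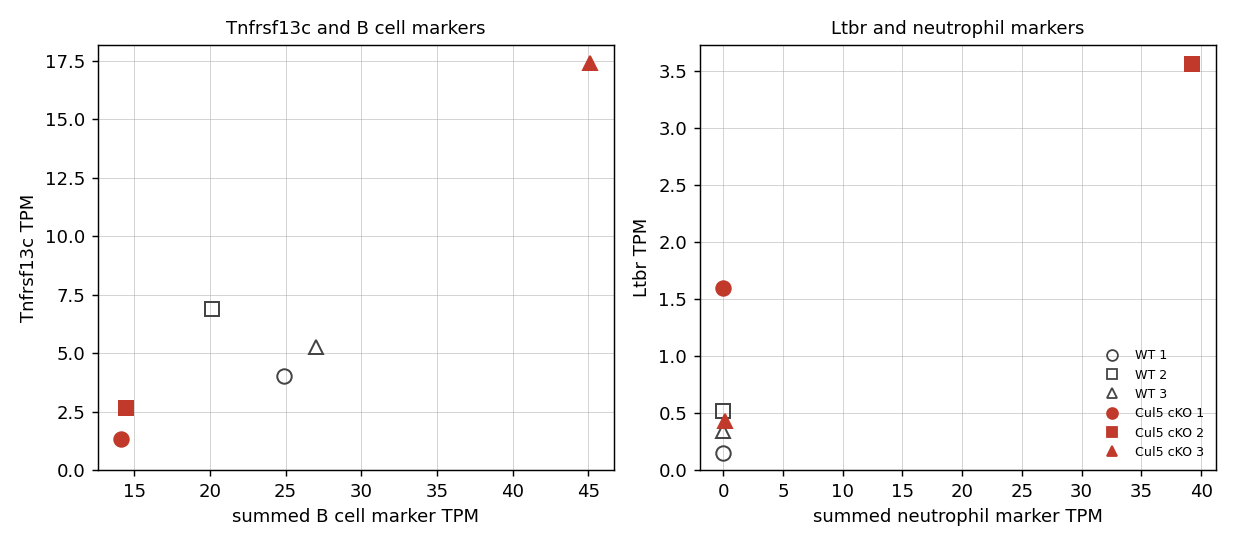
Left, TPM of Tnfrsf13c against the summed TPM of 8 B cell markers, and right, TPM of Ltbr against the summed TPM of 5 neutrophil markers, with 1 point for each of the 6 samples. Cul5 cKO replicate 3 stands alone at the upper right of the first panel and Cul5 cKO replicate 2 at the upper right of the second. In the second panel, 1.22 TPM of the Ltbr value in Cul5 cKO replicates 1 and 2 came from 1 count each on a transcript of 215 bases.

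The death and decoy receptors showed small differences. Fas was at 6.53, 7.83 and 6.33 CPM in WT and at 4.30, 6.31 and 4.67 CPM in Cul5 cKO samples, with no overlap but nearly touching (log2 fold change -0.45 ± 0.21, SE, adjusted p = 0.261). Tnfrsf10b, the TRAIL receptor of the mouse, was at 17, 19.5 and 19.2 CPM in WT and at 19.9, 22.6 and 23.6 CPM in Cul5 cKO samples, also without overlap (log2 fold change 0.25 ± 0.11, SE, adjusted p = 0.236). Tnfrsf21 reached at most 2.67 CPM (adjusted p = 0.724). Tnfrsf26, grouped here with the decoy receptors, was at 15.3, 23.5 and 22.5 CPM in WT and at 13.9, 16.7 and 10.3 CPM in Cul5 cKO samples. Its log2 fold change was -0.57 ± 0.22 (SE, adjusted p = 0.206), but the sign was opposite in the authors' gene table (1.81, limma adjusted p = 0.649). Tnfrsf23, of the same cluster on chromosome 7, was at 1.49 to 1.77 CPM in WT and at 0.934 to 1.26 CPM in Cul5 cKO samples (adjusted p = 0.270). Tnfrsf22, which lies between them, had a log2 difference of -0.12 ± 0.14 (SE, adjusted p = 0.659). A stretch of 766 bases of a Tnfrsf22 transcript matches Tmem72 in antisense at 97.8% identity, and reads from it could be shared if strand was not kept. Another 227 bases match Slc25a20 on the same strand at 96.5% identity, where reads could be shared in either case. Stretches of 150 to 164 bases of Tnfrsf10b and Tnfrsf14 transcripts match other genes with counts at over 95% identity. The soluble decoy Tnfrsf11b (osteoprotegerin) had between 1 and 17 counts a sample (adjusted p = 0.610).

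Of the receptors best known from other tissues, Tnfrsf12a (Fn14, which cells induce on growth stimulation and injury) was at 4.91, 6.06 and 4.30 CPM in WT and at 6.30, 8.85 and 8.80 CPM in Cul5 cKO samples. In CPM all Cul5 cKO values were above the WT values, whereas in TPM the groups overlapped. The fitted log2 fold change came to 0.62 ± 0.21 (SE, adjusted p = 0.161, over a range of 0.0595 to 0.424). Tnfrsf11a (RANK) was at 0.253 to 1.27 CPM over all samples (adjusted p = 0.520).

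The 8 members that were not tested had few counts. Tnfrsf17 and Tnfsf18 had none, which allows up to 3 counts a sample, or 0.128 to 0.130 CPM in the deep libraries and 0.760 CPM in WT replicate 3. Cd70 had at most 4 counts a sample, Tnfsf13 at most 2.86, Tnfsf12 at most 4.94, Tnfsf15 at most 7.76, Tnfsfm13 at most 9.19 and Tnfrsf19 at most 15. Tnfsfm13 is a readthrough transcript that shares 731 bases with Tnfsf12 and 989 bases with Tnfsf13 at over 99% identity, so the counts of these 3 genes are uncertain.

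Set beside their partners, several receptors with high RNA had a ligand with little RNA in the same cultures. Tnfrsf18 averaged 168 TPM in both groups and its ligand Tnfsf18 had no count. Tnfrsf4 averaged 315 TPM in WT and 408 TPM in Cul5 cKO cells, against 2.57 and 2.36 TPM for Tnfsf4. Tnfrsf25 averaged 69.3 and 56.3 TPM, against 0.126 and 0.0673 TPM for Tnfsf15, and Cd27 46.4 and 18.8 TPM against 0.0324 and 0.186 TPM for Cd70. The opposite held for Ltbr, at 0.340 and 1.86 TPM, whose ligand Ltb averaged 171 and 164 TPM. In Cul5 cKO replicates 1 and 2 (1.60 and 3.56 TPM of Ltbr), 1.22 TPM came from 1 count each on Ltbr-203, a retained-intron transcript of 215 bases. The opposite also held for Tnfrsf11a, at 0.137 and 0.228 TPM, whose ligand Tnfsf11 averaged 61.0 and 47.2 TPM. For Tnfrsf1b both were present, at 64.9 and 59.8 TPM, with Tnf at 41.7 and 70.2 TPM and Lta at 517 and 1244 TPM. Antigen-presenting cells are the usual source of several of these ligands. Their markers summed to 0.231 to 1.57 TPM for dendritic cells, 1.37 to 9.27 TPM for myeloid cells (highest in Cul5 cKO replicate 2) and 14.1 to 45.1 TPM for B cells.

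The shares of transcripts within members were compared in the same way. Of the 25 member transcripts with at least 10 counts in every sample in genes with more than 1 such transcript, 3 (12%) had shares that did not overlap between the groups, against 12.5% of 16646 transcripts. They were Tnfrsf25-201 (27.8% to 33.6% in WT and 36.8% to 40.5% in Cul5 cKO samples), Tnfrsf25-204, a transcript without a coding sequence (27.3% to 28.9% and 21.8% to 24.0%), and Tnfrsf13b-201 (44.0% to 46.4% and 48.4% to 50.8%). Reads of 50 bases place transcripts of 1 gene with limited certainty. Lta has a single annotated transcript, so its difference does not depend on that division.

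Downstream of the receptors, 36 genes for TRAF adaptors, death signalling proteins, ubiquitin ligases and deubiquitinases, kinases and sheddases were all tested. None had an adjusted p under 0.05 in edgeR or in DESeq2. At an unadjusted p under 0.05, 7 passed (19.4%, near the 21.3% of all genes), 3 higher and 4 lower, and the median log2 fold change was 0.05. The groups did not overlap for 12 of 36 (33.3%, background 27.5%). Of the 7 TRAF genes 5 had positive values in this fit, although Traf7 turned negative in at least 1 alternative. Among them was Traf6 (at 440 to 473 CPM in WT and at 499 to 538 CPM in Cul5 cKO samples, log2 fold change 0.17 ± 0.06, SE, adjusted p = 0.171). The fitted log2 difference of Traf1 was -0.19 ± 0.23 (SE, adjusted p = 0.679, with 0.0442 for replicate 1 as a term and 0.117 for replicates 2 and 3 alone), and its sign turned in at least 1 alternative. The 7 death signalling genes had positive values in this fit with a median of 0.10, but 4 of them turned negative in at least 1 alternative. These were Fadd with scaling by library size alone (-0.03) and without 1 sample (down to -0.06), Tradd in thinned libraries (-0.04), and Cflar and Casp8 without 1 sample (down to -0.13 and -0.04). Among the 7 were Ripk3, the kinase of necroptosis (log2 fold change 0.22 ± 0.07, SE, adjusted p = 0.163), and its substrate Mlkl (0.70 ± 0.30, adjusted p = 0.234, at 1.27 to 3.72 CPM). Of the 9 ubiquitin genes, Birc2 (cIAP1, which ubiquitinates RIPK1) was at 34.3, 36.1 and 37.7 CPM in WT and at 25.9, 27.9 and 31.0 CPM in Cul5 cKO samples. All Cul5 cKO values were below the WT values, and the fitted log2 fold change came to -0.34 ± 0.09 (SE, adjusted p = 0.112, with 0.0237 for replicate 1 as a term and 0.0754 for replicates 2 and 3 alone, over a range of 0.0237 to 0.811). Otulin, which removes linear ubiquitin chains, had a log2 difference of 0.35 ± 0.12 (SE, adjusted p = 0.177, with 0.0604 for replicate 1 as a term and 0.0417 for replicates 2 and 3 alone, over a range of 0.0417 to 0.452). The adaptor Tank, the regulatory subunit Ikbkg (NEMO) and the kinase Map3k5 (ASK1) had log2 fold changes of -0.19, -0.23 and -0.37 (adjusted p from 0.185 to 0.218). The sheddases Adam10 and Adam17, which release TNF and other ligands from the membrane, were at 0.03 ± 0.07 and 0.00 ± 0.06 (SE).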

How the data were processed

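Reads of 50 bp (poly-A RNA, single end) were quantified by the authors with kallisto 0.46.2 against the Ensembl transcripts of GRCm38. The deposited sample files hold its estimated counts, not normalized, and TPM, and the authors' gene table holds TMM-normalized log2 CPM made with edgeR 3.34.0. The table's columns of log2 fold changes and p-values were not used. Transcripts were summed by gene with GENCODE vM21 (116640 of 119414 matched, 97.7%), rounded, filtered and tested with edgeR 4.0.16 in R 4.3.3 (TMM, quasi-likelihood, Benjamini-Hochberg over 12925 genes). The self-test ran on simulated data. Python 3.11.15, limma 3.58.1, DESeq2 1.42.0 and blastn 2.17.0 (at least 95% identity over 150 bases) were also used. Depth ran from 3944803 to 23454552 counts, and limits from counts cover counting error only. The coefficient of variation between replicates was 16.1%. Alternatives were another normalization, filter, unit or tool, a replicate block, a replicate 1 term, replicates 2 and 3 alone, thinning and each sample left out. Every member could be named. The rule for signalling genes was an adjusted p under 0.05 or a place among the 8 lowest p. Traf1, Traf7, Fadd, Tradd, Cflar, Casp8, Adam10 and Adam17 are named outside that rule. Members, lists and tests were chosen with earlier results of these data known.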

Additional observations from a re-analysis of the deposited data

How the results depend on the processing

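The count of members called was 1 with DESeq2's size factors, library size alone, either filter, counts scaled from TPM, thinned libraries and limma on the authors' table or on TPM, 2 with DESeq2, 8 in replicates 2 and 3 alone, 11 with replicate 1 as a term and 10 at an unadjusted p under 0.05, and with 1 sample left out it ran from 0 to 1. For signalling genes it was 2 with replicate 1 as a term (5.56%, against 13.1% of all genes), 1 in replicates 2 and 3 alone (2.78%, against 8.83%) and 7 at an unadjusted p (19.4%, against 21.3%). For all genes it was 693 (DESeq2), 228 (no filter), 60 (counts scaled from TPM), 42 (authors' table), 27 and 30 (TPM plus 1 or 0.1), 1688 and 1153 (the replicate 1 fits), 2753 (unadjusted) and 2 to 316 with 1 sample left out. The same replicate numbers in both groups gave correlations of deviations of 0.37, 0.21 and 0.02, and WT replicate 3 correlated better with Cul5 cKO replicate 2 (0.09), so the numbers were not taken as pairs. With a replicate block 848 genes (6.56%), 8 members (23.5%) and 1 signalling gene (2.78%) were called. Of the members' values under the alternatives, 570 kept direction and side of the threshold, 25 gained a call, 3 lost one and 33 turned sign with no call. The cause was not tested. Depth limits members under about 1 CPM, above all in WT replicate 3.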
